A study of Mus musculus with 12 samples.

Results

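The 8 genes followed here code for the Dlx transcription factors of the ventral forebrain (Dlx1, Dlx2, Dlx5 and Dlx6), for the antisense RNA of the first of them (Dlx1as), and for the proteins that make GABA and load it into vesicles (Gad1, Gad2 and Slc32a1). They were taken by name, 8 of the 23513 genes in the tables, and were followed in all 25 clusters of nuclei and in the 11 embryos. The nuclei came from the cortex of C57BL/6J mouse embryos labelled embryonic day 14, whose dams had been injected once a day for 6 days from embryonic day 8.5 with saline (Saline, 5 embryos) or with EtOH at 2.5 g/kg as a 25% solution (EtOH, 6 embryos). Each group came from 2 dams, 1 in each of 2 batches (saline dams S1 and S2, EtOH dams E1 and E2), so embryos of 1 dam are littermates and the p-values below take them as independent. No allele or transgene was involved. Saline embryo S2-3 was not analysed here.

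Distal-less homeobox (Dlx) factors act in the ganglionic eminences, the ventral domains where GABAergic neurons of the forebrain are born before interneurons migrate tangentially into the cortex. Dlx1 and Dlx2 are known to appear first, in dividing progenitors, and Dlx5 and Dlx6 follow in later precursors and neurons. Gad1 and Gad2 code for the GAD67 and GAD65 glutamate decarboxylases, which make GABA from glutamate, and Slc32a1 codes for the vesicular GABA transporter. Excitatory projection neurons of the cortex do not use this programme.

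The genes lie in pairs on the mouse genome (GENCODE M21 on GRCm38). Dlx1 (ENSMUSG00000041911) covers chr2:71528113-71533981 on the plus strand and Dlx2 (ENSMUSG00000023391) covers chr2:71543408-71546754 on the minus strand, with 9426 bases between them. Dlx1as (ENSMUSG00000084946) covers chr2:71516454-71537891 on the minus strand and holds all 5869 bases of Dlx1. Dlx6 (ENSMUSG00000029754, chr6:6863334-6868568, plus strand) and Dlx5 (ENSMUSG00000029755, chr6:6877805-6882085, minus strand) are 9236 bases apart, and the antisense RNA Dlx6os1 spans all 5235 bases of Dlx6. Gad1 (ENSMUSG00000070880) covers chr2:70553072-70602014, Gad2 (ENSMUSG00000026787) chr2:22622205-22693874 and Slc32a1 (ENSMUSG00000037771) chr2:158610767-158615748, all on the plus strand. Counting used the default parameters of Cell Ranger, which takes reads by strand. Whether UMIs of Dlx1 and Dlx1as, or of Dlx6 and Dlx6os1, were still exchanged where the genes overlap was not tested.

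The RefSeq promoter table (build GRCm38.p6) held 5 of the 8 genes (Dlx1, Dlx2, Gad1, Gad2 and Slc32a1). The 250 bases before the RefSeq start of the early gene Dlx2 and of the GABA-synthesis gene Gad1 are shown because, relative to the late precursors, these genes had the highest and the lowest level in the precursors described below, with every CG pair in capitals. For Gad1 this start lies inside the GENCODE interval given above, so the stretch does not precede the whole annotated gene.

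Dlx2, chr2:71546755-71547004, minus strand: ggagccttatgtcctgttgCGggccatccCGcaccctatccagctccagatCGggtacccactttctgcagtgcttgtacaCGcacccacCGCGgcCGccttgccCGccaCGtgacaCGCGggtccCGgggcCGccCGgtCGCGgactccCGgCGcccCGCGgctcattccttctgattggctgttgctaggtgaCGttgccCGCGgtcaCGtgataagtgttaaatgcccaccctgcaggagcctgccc

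Gad1, chr2:70561879-70562128, plus strand: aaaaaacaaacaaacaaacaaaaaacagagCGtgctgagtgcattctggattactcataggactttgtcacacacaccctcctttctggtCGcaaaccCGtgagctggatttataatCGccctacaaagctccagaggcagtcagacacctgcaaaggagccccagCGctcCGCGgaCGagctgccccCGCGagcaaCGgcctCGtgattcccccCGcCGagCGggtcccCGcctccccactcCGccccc

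The Dlx2 stretch held 24 CG pairs and the Gad1 stretch 17, against a median of 6 over 32851 promoters, and 12% and 23.5% of promoters held as many. The Dlx1 stretch held 22 CG pairs, the Gad2 stretch 13 and the Slc32a1 stretch 12. The homeodomain core TAATTA, searched on both strands, was in 0 of the 5 stretches and in 4.84% of all promoters of this length. The E-box CACGTG was in 1 of the 5 (Dlx2) and in 6.02% of all, which describes these letters only.

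Levels are given as CPM, the UMIs of a gene per 1000000 UMIs of the nuclei of 1 embryo in 1 cluster, and as the mean ± SD over embryos with at least 10 nuclei. The 25 clusters of the authors comprise 5 of radial glia (RGC), 2 of intermediate progenitors (IPC), 8 of projection neurons (PN), 7 of interneurons and 3 others. The tables held 50550 nuclei, of which 13749 were in the 7 interneuron clusters. Total UMIs were 44017566 to 83061737 in the saline embryos and 14078316 to 38034349 in the EtOH embryos, so the groups did not overlap in depth. Pairs of embryos shared 1 to 18 cell barcodes, and 1.26% of nuclei carried a barcode seen in another embryo. Saline embryo S2-2 stood apart in makeup, with 1.28% of its nuclei in the late interneuron precursors of Cluster 10, against 2.34% to 6.28% in the other 10 embryos. Clusters were built from expression, these genes included, so levels between clusters are described here without a test.

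The interneuron label was checked against these genes. Gad2 had at least 1 UMI in 94.7% to 98.0% of the nuclei of 6 interneuron clusters, but in 69.7% of those of Cluster 7 (Int 1). After thinning to 2000 UMIs per nucleus, 40.7% of the nuclei of Cluster 7 showed none of the 4 Dlx and 3 GABA genes, against 3.22% to 16% in the other 6. Cluster 7 also held Slc17a6, the vesicular glutamate transporter of many excitatory neurons, at 116 CPM, against 21.3 to 65.0 CPM in the other 6. Part of Cluster 7 thus goes against its label.

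**Figure D1:**
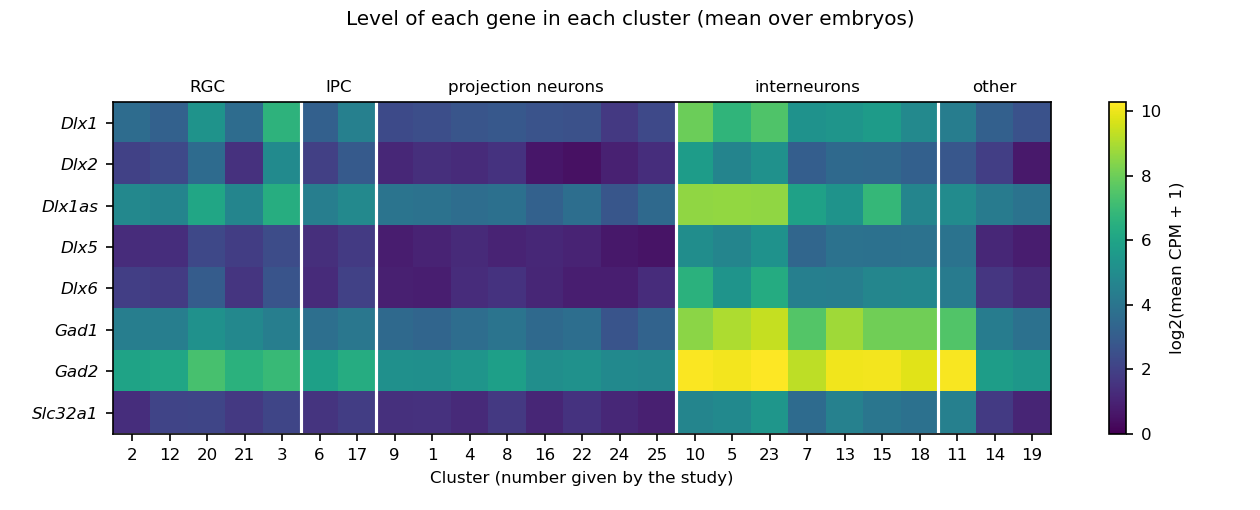
Mean level of each gene (rows) in each of the 25 clusters (columns, grouped by class), as log2(mean CPM + 1) over embryos. Each gene has its highest mean in Cluster 10, 5 or 23, and Cluster 3 is the highest cluster outside the interneurons for Dlx1 (98.7 CPM), Dlx1as (84.6 CPM) and Dlx2 (29.5 CPM), but not for Gad2 (Cluster 11, 1172 CPM).

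Dlx1 was highest in the late interneuron precursors of Cluster 10, at 252 ± 55.5 CPM (SD, n = 11). The Erbb4-rich migrating interneurons of Cluster 23 followed at 174 ± 19.8 CPM (n = 10), the migrating interneurons of Cluster 5 at 105 ± 12.2 CPM, and the interneuron precursors of Cluster 3, which belong to the RGC class, at 98.7 ± 30.5 CPM. The means of Clusters 5 and 3 differed by less than the spread, while the other steps among these 4 clusters exceeded it. The remaining interneuron clusters held 28.0 to 49.5 CPM. Over the 8 projection neuron clusters Dlx1 was at 2.24 to 6.07 CPM, and over the 4 RGC clusters other than Cluster 3 at 8.18 to 38.4 CPM, with Cluster 20 (RGC 2) the highest of these.

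Dlx2 had the same leading clusters, with 50.2 ± 9.96 CPM in the late precursors (Cluster 10) and 36.1 ± 16.6 CPM in the migrating Cluster 23. It was at 29.5 ± 6.90 CPM in the precursors of Cluster 3 and 24.2 ± 5.12 CPM in the migrating Cluster 5. No neighbours among these 4 differed beyond their spread. Projection neurons held 0.394 to 1.86 CPM of Dlx2. Over the 25 clusters Dlx1 and Dlx2 correlated at r = 0.974 (Pearson's r of log2(mean CPM + 1)), the highest value for either gene among 11620 others. Such values describe clusters that share libraries and are not independent, and they carry no test.

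Dlx1as followed Dlx1 but was flat across the leading clusters, with 397 ± 26.8 CPM in migrating Cluster 5, 379 ± 59.9 CPM in the late precursors and 378 ± 71.5 CPM in Cluster 23. The next cluster, the interneurons of Cluster 15, held 113 ± 18.4 CPM, a step beyond the spread, and Cluster 3 held 84.6 ± 25.9 CPM. The ratio of Dlx1as UMIs to Dlx1 UMIs differed between these clusters. It was 0.874 ± 0.151 in Cluster 3, 1.54 ± 0.235 in Cluster 10, 2.20 ± 0.502 in Cluster 23 and 3.81 ± 0.473 in Cluster 5. In Cluster 5 each of the 11 embryos had at least 3.04 Dlx1as UMIs per Dlx1 UMI, and in Cluster 3 none had more than 1.22. The interneurons of Clusters 13 and 18 were at 1.00 ± 0.401 and 0.918 ± 0.408, near Cluster 3, so a high ratio was not shared by all interneurons. Nor was it particular to them. Where both RNAs are near background the mean ratio was 1.40 ± 1.14 (Cluster 24, n = 5) to 3.84 ± 1.38 (Cluster 9, n = 10) over the 8 projection neuron clusters, and 3.48 ± 1.43 in the non-mitotic RGC of Cluster 12 (n = 11).

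**Figure D2:**
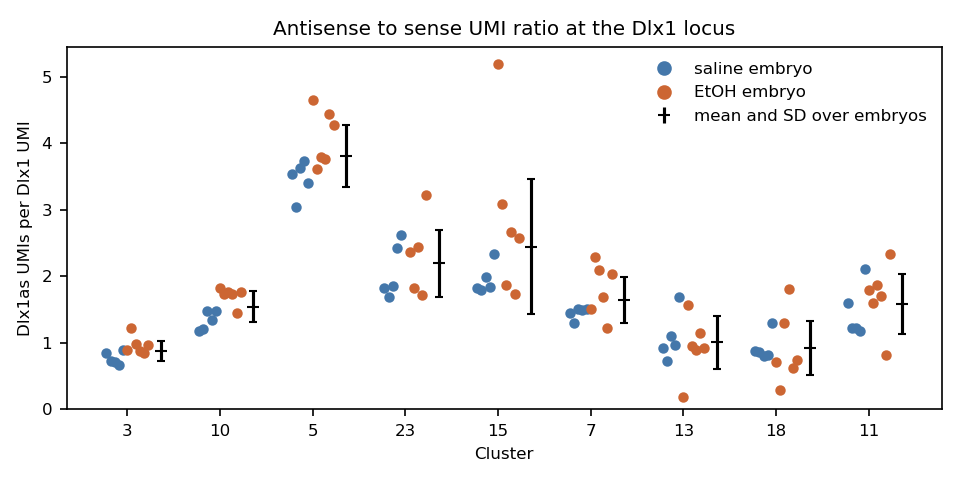
Dlx1as UMIs per Dlx1 UMI (vertical axis) in Cluster 3, the 7 interneuron clusters and Cluster 11 (horizontal axis), with 1 point per embryo (blue saline, orange EtOH) and bars for mean and SD over embryos. Cluster 5 lies between 3.04 and 4.65, above all embryos of Clusters 3, 10, 7, 13, 18 and 11.

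Dlx5 and Dlx6 were also highest in interneuron clusters, but were low in the early precursors of Cluster 3. Dlx6 averaged 95.1 ± 24.3 CPM in the late precursors, 79.3 ± 44.0 CPM in Cluster 23 and 39.2 ± 8.87 CPM in migrating Cluster 5, but 5.36 ± 2.07 CPM in the early precursors of Cluster 3. Dlx5 averaged 36.8 ± 15.2 CPM in Cluster 23, 32.4 ± 8.57 CPM in the late precursors and 24.5 ± 2.65 CPM in migrating Cluster 5, but 4.29 ± 2.31 CPM in the early precursors. Projection neurons held 0.473 to 1.32 CPM of Dlx5 and 0.816 to 1.81 CPM of Dlx6. The striatal neurons of Cluster 11, which are GABAergic but not cortical interneurons, kept Dlx5 at 14.0 ± 4.25 CPM, or 74.8% ± 19.2 of the level in the interneuron clusters together, and Dlx6 at 51.8% ± 18.5. Dlx1 and Dlx1as were far lower there, at 21.1% ± 4.13 and 14.4% ± 4.45 of it (n = 11 for each).

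Gad2 was nearly level over the GABAergic clusters, with means from 1062 to 1248 CPM in Clusters 23, 10, 11, 5, 15 and 13. None of these 6 differed from its neighbour beyond the spread. Cluster 18 held 909 ± 133 CPM, and Cluster 7 only 608 ± 134 CPM. Gad1 varied more, from 664 ± 78.6 CPM in migrating Cluster 23 and 514 ± 26.4 CPM in migrating Cluster 5 down to 182 ± 70.3 CPM in Cluster 7. Each step among the first 5 clusters was beyond the spread. In Cluster 11 Gad1 was at 181 ± 21.3 CPM and Gad2 at 1172 ± 188 CPM. Gad1 thus stood at 52.4% ± 9.13 and Gad2 at 122% ± 16.2 of the level in the interneuron clusters together (n = 11). That level includes Cluster 7, which is low in both genes. Against the single clusters, the Gad2 of Cluster 11 lay within the 1062 to 1248 CPM given above. Gad1 UMIs per Gad2 UMI were 0.156 ± 0.0194 in Cluster 11 and 0.467 ± 0.0231 in Cluster 5, and no embryo of the former (highest 0.187) reached any of the latter (lowest 0.423).

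Slc32a1 was sparse, with 3343 UMIs in all, and peaked at 41.7 ± 17.4 CPM in Cluster 23, followed by Cluster 5 (28.5 ± 6.41 CPM), Cluster 10 (24.7 ± 9.06 CPM), Cluster 13 (21.8 ± 8.66 CPM) and the striatal Cluster 11 (21.1 ± 6.26 CPM). None of these neighbours differed beyond their spread. The lowest interneuron cluster was Cluster 7 at 11 ± 4.65 CPM, and the next cluster in the order, Cluster 20, was at 3.43 ± 3.31 CPM, a step beyond the spread. Projection neurons held 0.868 to 2.23 CPM.

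In Cluster 3 the members had unequal levels. These nuclei carried the radial glia markers Nes at 63.6 CPM and Hes5 at 60.3 CPM, for both of which Cluster 3 was the highest cluster, and Top2a of dividing cells at 583 CPM. The other 4 of 6 radial glia markers were higher elsewhere, Hes1 (47.0 CPM, against 99.4 CPM in Cluster 2), Pax6 (139 against 419.9 in Cluster 12), Sox2 (95.5 against 106 in Cluster 23) and Vim (75.3 against 92.8 in Cluster 12). Relative to Cluster 10 of the same embryo, the level in Cluster 3 was 59.8% ± 15.6 for Dlx2, 39.2% ± 10.2 for Dlx1 and 22.3% ± 6.39 for Dlx1as. It was 13.2% ± 5.56 for Dlx5, 10.0% ± 2.02 for Gad2, 6.01% ± 2.62 for Dlx6 and 5.62% ± 2.48 for Gad1 (n = 11 for each). The lowest embryo for Dlx1 (26%) lay above the highest for Dlx5 (20.3%), Gad2 (13.9%), Dlx6 (10.1%) and Gad1 (9.08%). Slc32a1 was at 17.1% ± 13.2, with a range of 6.55% to 50.7%, and rests on 104 UMIs in Cluster 3.

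**Figure D3:**
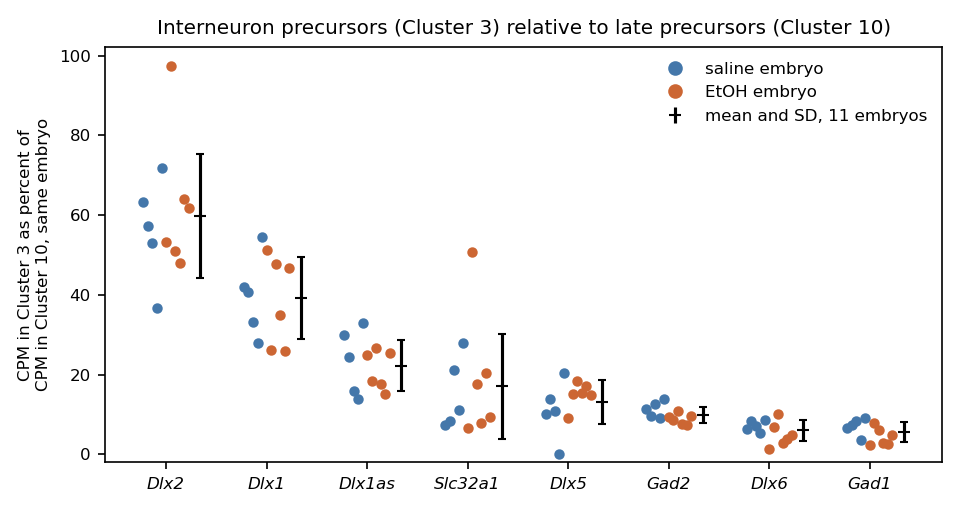
CPM in the interneuron precursors of Cluster 3 as a percentage of CPM in the late precursors of Cluster 10 of the same embryo (vertical axis) for each gene (horizontal axis), with 1 point per embryo (blue saline, orange EtOH) and bars for mean and SD over 11 embryos. Dlx2 and Dlx1 lie between 26% and 97.3%, while no embryo exceeds 20.3% for Dlx5, Gad2, Dlx6 or Gad1.

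Projection neurons, which should lack these genes, were taken as the background level. Whether their UMIs came from free RNA, from doublets or from the nuclei themselves was not tested. Against the projection neurons of the same embryo, Cluster 3 held 23.5 ± 9.55 times as much Dlx2, 19.4 ± 4.61 times as much Dlx1 and 6.94 ± 2.06 times as much Dlx1as. The excess was 5.23 ± 4.53 times for Dlx5, 4.37 ± 1.76 times for Dlx6, 3.49 ± 1.33 times for Gad2, 2.59 ± 1.80 times for Slc32a1 and 1.83 ± 0.679 times for Gad1. Against RGC 1 (Cluster 2), Gad1 in Cluster 3 was at 1.18 ± 0.959 times and Dlx1 at 9.53 ± 4.50 times. Gad1 in Cluster 3 was therefore near the level of other radial glia, and Dlx1 was not.

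The share of nuclei with a UMI was also taken at equal depth. With each nucleus thinned to 2000 UMIs, Dlx1 was found in 16.2% of the nuclei of Cluster 3, in 42.0% of Cluster 10, in 21.2% of Cluster 5 and in 0.778% to 1.26% of the nuclei of the 8 projection neuron clusters. Gad1 was found in 2.76% of Cluster 3, in 46.4% of Cluster 10, in 63.4% of Cluster 5 and in 1.40% to 2.23% of the nuclei of projection neurons. Gad2 was found in 15.3% of Cluster 3 and in 82.9% of Cluster 10, with 4.24% to 7.72% in projection neurons. Without thinning, at a median of 6182 UMIs in Cluster 3 and 5508 UMIs in Cluster 10, Dlx1 was found in 29.4% and 68.6%. At 2000 UMIs, 14.2% of the nuclei of Cluster 3 showed 1 of the 4 Dlx genes without Gad1, Gad2 or Slc32a1, against 6.74% in Cluster 10 and 1.80% in Cluster 5. The reverse, a GABA gene without a Dlx gene, was found in 11.1% of Cluster 3, 35.6% of Cluster 10, 60.2% of Cluster 5 and 79.8% of Cluster 11.

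Within Cluster 3 Dlx1 met several other members in the same nuclei. Of the 652 thinned nuclei with a Dlx1 UMI, 16.9% had a Dlx2 UMI, against 4.31% of those without, and 37.1% had a Dlx1as UMI, against 9.63%. Dlx5 and Dlx6, which are rare there, were each found in 2.61% of nuclei with Dlx1, against 0.713% and 0.416% of those without. Gad2 was found in 29.6% of nuclei with Dlx1 and in 12.5% of those without. Gad1 showed no such tie, since Dlx1 was found in 13.5% of the 111 nuclei with Gad1 and in 16.3% of those without. In Cluster 10, Dlx1 was found in 35.7% of the 1093 nuclei with Gad1 and in 47.4% of those without. In Cluster 5, Dlx2 was as common in nuclei with Dlx1 (4.36%) as in those without (4.94%). Nuclei are not replicates, and these shares are descriptions over all embryos.

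The genes most like the members over the 25 clusters were largely shared. For each member the 3 non-member genes with the highest r were named. Dlx6os1 was first for 7 of the 8 members, with r from 0.890 for Dlx2 to 0.988 for Dlx6, and second for Gad1 (r = 0.963). Nrxn3, a presynaptic adhesion gene, led for Gad1 (r = 0.964) and was second for Dlx5, Dlx6, Gad2 and Slc32a1. Sp9, a zinc finger factor of interneurons, was named for Dlx1, Dlx5, Dlx1as, Gad1 and Slc32a1. Dlx2 alone was paired with Entpd1 (r = 0.883) and with Sox1 (r = 0.870), a factor of neural progenitors, both highest in Cluster 3. The others were Gm38505 for Dlx1, Gm45680 for Dlx6, Dclk2 for Dlx1as and Gad1os for Gad2. Between members, Dlx5 and Dlx6 were at r = 0.984, Gad1 and Gad2 at 0.982, and Dlx2 and Gad1 lowest at 0.788.

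Levels of the pathway genes placed the members in these clusters. Gsx2, an upstream factor of the ventral forebrain, was highest in Cluster 3 at 6.06 CPM, with 1.97 CPM in Cluster 10. Dlx6os1 had 198 CPM in Cluster 3 and peaked at 4077 CPM in the late precursors. Lhx6, a factor of migrating interneurons, was highest in Cluster 5 at 285 CPM. Of the genes that carry and break down GABA, Slc6a11, a plasma membrane transporter typical of glia, was highest in Cluster 3 (52.5 CPM, against 2.79 CPM in Cluster 5). Dlx3 was at or below 0.1000 CPM in every cluster.

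EtOH was then compared with saline, on counts summed per embryo, with edgeR's quasi-likelihood test in each cluster and in the 7 interneuron clusters together. A gene was called at an adjusted p under 0.05 (Benjamini-Hochberg over all genes tested in that cluster) with a fold under 0.8 or over its inverse. The filter on low counts let 109 of the 200 pairs of a member and a cluster be tested, and 1 pair was called, Slc32a1 in Cluster 5. Over all genes 0.792% of pairs were called, so the members were called about as often as genes in general. At an unadjusted p under 0.05 there were 23 of the 109 pairs, 19 lower and 4 higher in EtOH, where 7.83% of all gene-cluster pairs were lower and 9.54% higher. The lower pairs in interneuron clusters were Dlx1 in Clusters 5, 10 and 15, and in Cluster 3 they were Gad1 and Gad2. All other lower pairs lay in projection neuron Clusters 1, 4, 8, 9 and 16, RGC 1 (Cluster 2) and IPC Cluster 6. The higher pairs were Dlx5 in Cluster 23, Dlx6 in Cluster 10 and Slc32a1 in Clusters 5 and 15. Pairs of 1 gene in several clusters share their embryos.

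Slc32a1, the vesicular GABA transporter, was higher in EtOH. In the migrating interneurons of Cluster 5 it was at 21.7, 17.5, 23.1, 23.2 and 26.6 CPM in saline embryos S1-1, S1-2, S2-1, S2-2 and S2-4. In the 6 EtOH embryos the lowest was 29.7 CPM, the median 33.1 CPM and the highest 38.0 CPM, so the groups did not overlap. Of the 8 members, 1 had groups that did not overlap in Cluster 5, against 2.32% of all genes tested. The log2 fold change was 0.53 ± 0.12 (SE), a fold of 1.44, with an adjusted p of 0.0358 by edgeR, where 2.01% of genes were called. It was 0.61 within batch 1 and 0.45 within batch 2, and 0.93 when nuclei were thinned to 2000 UMIs (adjusted p = 0.0254), so the difference was not smaller at equal depth per nucleus. The summed level of 4 striatal markers in Cluster 5 (Rarb, Ebf1, Foxp1 and Isl1, none of them at 0) was 280.1 to 372 CPM in saline and 146 to 256 CPM in EtOH embryos, and its part in the result was not tested.

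In the 7 interneuron clusters together Slc32a1 was at 17.4, 15.9, 15, 13.9 and 19.8 CPM in the saline embryos and at a lowest of 18.9, a median of 23.3 and a highest of 27.9 CPM in the EtOH embryos. The highest saline embryo, S2-4, overlapped the lowest EtOH embryo, E1-2. The log2 fold change was 0.43 ± 0.11 (edgeR adjusted p = 0.0364), with 0.33 within batch 1 and 0.50 within batch 2. It was 1 member called of 8, where 4.83% of all genes were called. Slc32a1 was higher in EtOH in all 7 interneuron clusters, by 0.19 to 0.63 on the log2 scale, and by 0.34 in the striatal Cluster 11. Of these, 1 cluster passed the test. With 1 embryo left out at a time the log2 fold change in the interneurons together stayed between 0.37 and 0.47, but the call was kept in 2 of the 11 fits (without E1-1 or S2-4), and in 5 of them no gene at all was called. In Cluster 5 it was kept in 3 of 11 (without E1-1, E2-4 or S2-4), with a log2 fold change of 0.46 to 0.58. With counts summed per dam neither value was called, at 0.37 in the interneurons together (edgeR adjusted p = 0.105) and 0.50 in Cluster 5 (adjusted p = 0.137). With the 7 clusters weighted equally in each embryo the difference was 0.16 on the log2(CPM + 1) scale (exact permutation p = 0.537). The equal weights kept clusters with as few as 6 nuclei in an embryo, and the value of 0 CPM of E1-2 in Cluster 18. The part of such sparse values in the 0.16 was not tested. With Cluster 7 left out and the other 6 summed the difference was 0.48 (exact permutation p = 0.00649).

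**Figure D4:**
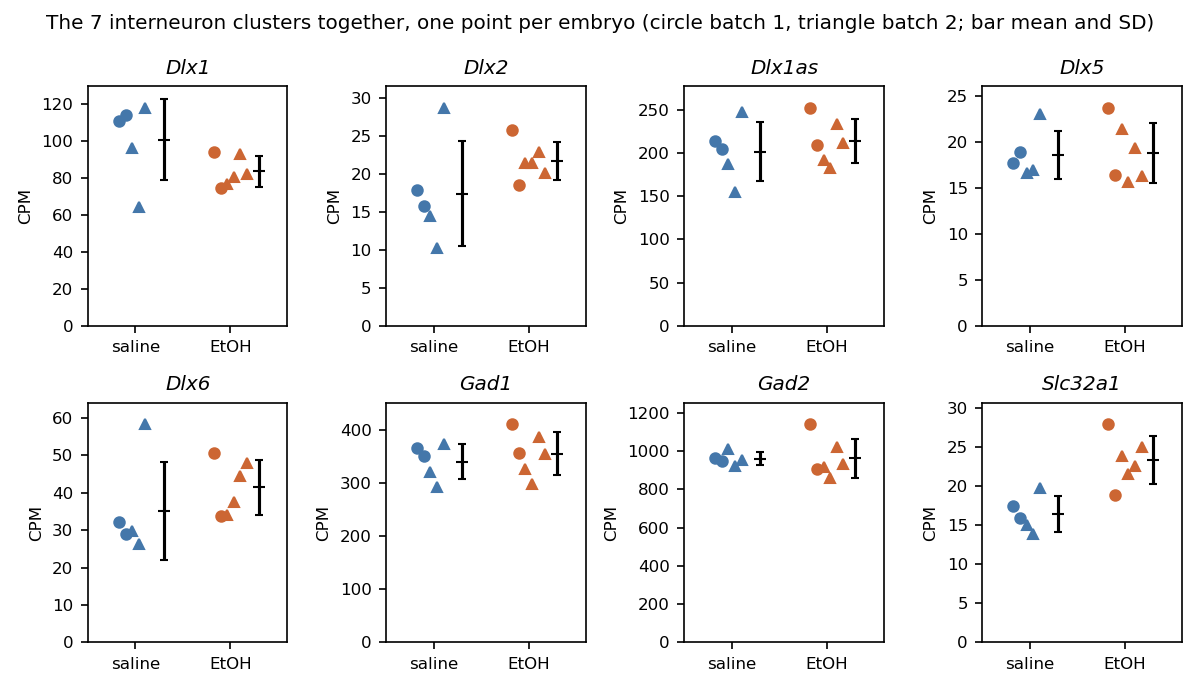
CPM of each gene in the 7 interneuron clusters together (vertical axes, starting at 0), by treatment (horizontal axes), with 1 point per embryo (circles batch 1, triangles batch 2) and bars for mean and SD (5 saline, 6 EtOH). Slc32a1 has a saline range of 13.9 to 19.8 CPM and an EtOH range of 18.9 to 27.9 CPM, and the groups overlap for every gene.

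Dlx1 was at 111, 114, 96.0, 64.3 and 118 CPM in the interneurons of saline embryos S1-1, S1-2, S2-1, S2-2 and S2-4, and at a lowest of 74.6, a median of 81.5 and a highest of 94.3 CPM in EtOH embryos. Every saline embryo except S2-2 was above all EtOH embryos. The log2 fold change was -0.35 ± 0.14, and it was not called (edgeR adjusted p = 0.133). Without S2-2, which had few late precursors, it was -0.47 and was called with an adjusted p of 0.0278 by edgeR, in a fit that called 498 genes against 701 with all embryos. S2-2 was also the lowest saline embryo for Dlx1, so leaving it out widens the difference by construction. Cluster 10, where Dlx1 peaks, held 5.72% to 6.28% of all nuclei of the 4 saline embryos that remain and 2.34% to 5.13% of those of the EtOH embryos. Its share among interneurons alone is not given and need not separate the groups. In E1-1 Cluster 10 held 4.35% and the interneurons together 20.3% of all nuclei, against 5.79% and 28.6% in S1-1. With all embryos the log2 fold change was -0.55 within batch 1 and -0.18 within batch 2. Over the 7 interneuron clusters taken singly the fold change was below 0 in 5, above 0 in 1 and 0.00 to 2 decimals in 1, from -0.43 to 0.12. With the 7 clusters weighted equally in each embryo the difference was -0.15 on the log2(CPM + 1) scale (exact permutation p = 0.297, two-sided, over all ways to choose the EtOH embryos).

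Dlx2 pointed the other way from Dlx1, without passing. Its CPM in the interneurons was 17.9, 15.8, 14.5, 10.2 and 28.7 in the saline embryos, and 18.6, 21.4 and 25.8 as lowest, median and highest in EtOH. Here S2-4 was above all EtOH embryos and the other 4 saline embryos were below them. The log2 fold change was 0.24 ± 0.19 (edgeR adjusted p = 0.444). Without S2-4 it was 0.43 and called (edgeR adjusted p = 0.0362), in a fit that called 2478 genes against 701 with all embryos. S2-4 was the highest saline embryo for Dlx2, so leaving it out raises the difference by construction. With the 7 clusters weighted equally in each embryo the difference was 0.51 on the log2(CPM + 1) scale (exact permutation p = 0.0390). Here too clusters with as few as 6 nuclei in an embryo were kept. With Cluster 7 left out and the other 6 summed the difference was 0.33 (exact permutation p = 0.136).

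Dlx6 had a log2 fold change of 0.17 ± 0.18 (edgeR adjusted p = 0.586). Saline embryo S2-4 was at 58.3 CPM, against 26.3 to 32.3 CPM in the other saline embryos and 33.8 to 50.6 CPM in EtOH. Without S2-4 the log2 fold change was 0.37 and called (edgeR adjusted p = 0.0309), in a fit that called 2478 genes against 701 with all embryos. Leaving out the highest saline embryo raises the difference by construction, so this call is not a separate result for Dlx6. Dlx5 was at -0.07 ± 0.12, Dlx1as at 0.01 ± 0.11, Gad1 at -0.01 ± 0.09 and Gad2 at -0.07 ± 0.08. For these 4 the 5 saline and 6 EtOH embryos overlapped widely, as for Gad2 with 922 to 1012 CPM in saline and 858 to 1139.5 CPM in EtOH. Over the 8 members 0 had groups that did not overlap in the interneurons together, against 2.73% of all genes, and their median log2 fold change was 0.00, against 0.01 over all genes tested.

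**Figure D5:**
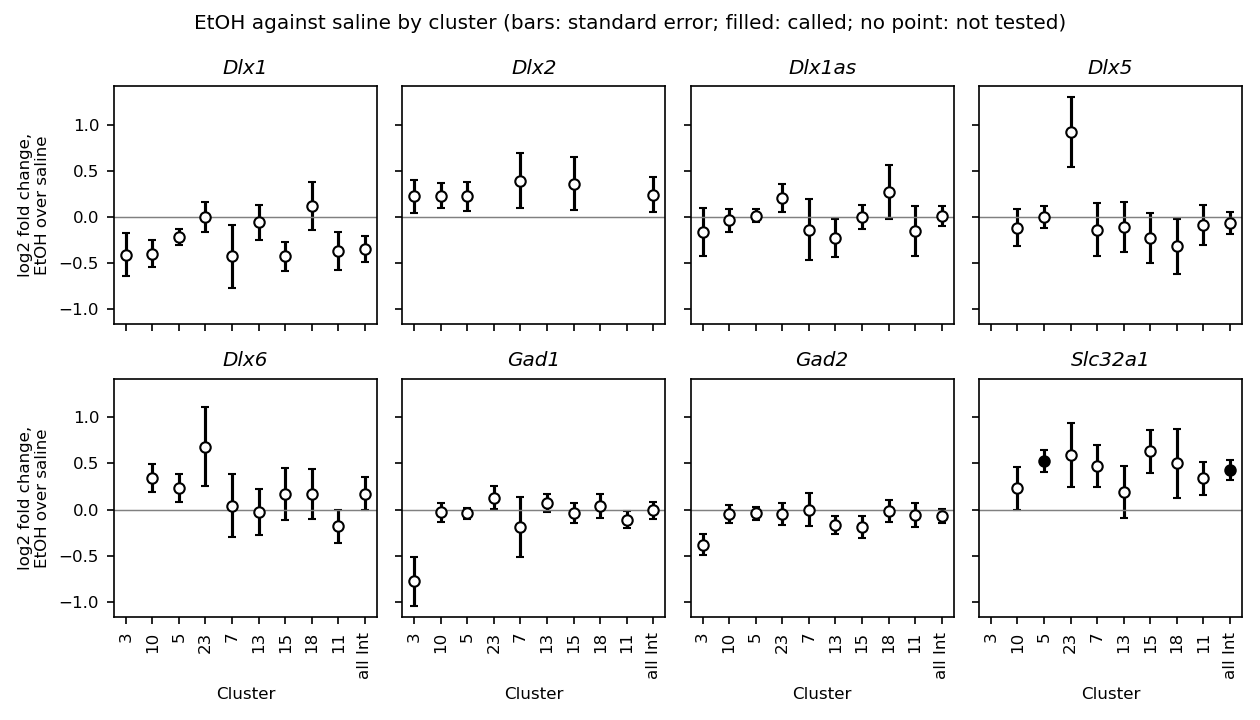
Log2 fold change of EtOH over saline (vertical axis) for each gene in Cluster 3, the 7 interneuron clusters, Cluster 11 and the interneuron clusters together (horizontal axis), with bars for the standard error, filled points for called results and no point where the gene was not tested. Slc32a1 lies above 0 in every cluster tested, with called values of 0.53 in Cluster 5 and 0.43 in the interneurons together.

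In the precursors of Cluster 3, 5 members could be tested and 0 were called by edgeR, against 1.85% of all genes (205 of 11084). Gad2 was at 136, 119.5, 154, 124 and 143 CPM in saline and at 79.6, 102 and 133 CPM as lowest, median and highest in EtOH, with overlap between the groups. Its log2 fold change was -0.38 ± 0.11 (adjusted p = 0.0588), and -0.36 and -0.41 within the batches. It was called with DESeq2 (-0.39, adjusted p = 0.0366), with counts summed per dam (-0.44, edgeR adjusted p = 0.0365), with dam as a random block (-0.40, limma adjusted p = 0.0318) and with no filter on low counts (-0.44, edgeR adjusted p = 0.00642). With nuclei thinned to 2000 UMIs it was -0.37 and not called (edgeR adjusted p = 0.327). With embryos left out in turn it ranged from -0.46 to -0.32, and it was called without S2-4. The share of all genes called in Cluster 3 is not given for the alternatives, so calls under them cannot be set against genes in general. In the interneurons together, 1285 genes were called with DESeq2 and 1599 with dam as a block, against 701 in the main fit. There were 569 with counts summed per dam and 657 with no filter. Gad1 was at -0.78 ± 0.27 (edgeR adjusted p = 0.110), and was called with counts summed per dam (-0.89, adjusted p = 0.0145) but not with dam as a random block (-0.87, limma adjusted p = 0.0599). The other 3 members tested were not called, with Dlx1 at -0.41 ± 0.23, Dlx1as at -0.16 ± 0.26 and Dlx2 at 0.22 ± 0.18.

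Lower values in EtOH were also found where these genes were at background. In projection neurons the log2 fold change of Gad1 was below 0 in 5 of 5 clusters tested, from -1.38 to -0.67, and that of Gad2 in 6 of 7, from -1.60 to 0.46. Dlx1 was below 0 in 3 of 3, from -0.92 to -0.51, and Dlx1as in 4 of 5, from -0.92 to 0.02. None of these was called by edgeR with all UMIs. With nuclei thinned to 2000 UMIs, Gad2 was called in the early projection neurons of Cluster 9 (-1.89, edgeR adjusted p = 0.0352). The level of Gad2 in all projection neurons together was 29.6 to 91.1 CPM in saline and 15.7 to 42.8 CPM in EtOH embryos. The part of this background in the difference in Cluster 3 was not tested.

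The share of interneuron nuclei with a UMI was compared at 2000 UMIs per nucleus, over the same choices of embryos. Slc32a1 was found in 3.55% ± 0.708 of nuclei in saline (n = 5) and in 5.34% ± 0.774 in EtOH (n = 6), a difference of 1.79 percentage points (exact permutation p = 0.00866, two-sided). This was 1 of 8 members with p under 0.05, against 19.3% of all genes in at least 1% of nuclei, so the count is no more than genes in general gave, and 0 of 8 passed after adjustment. Gad2 was found in 73.9% ± 3.33 and 75.5% ± 5.32, and Dlx1 in 18.9% ± 4.03 and 16% ± 1.87. Without thinning, at median depths of 8106 UMIs in saline and 6412 UMIs in EtOH interneurons, Slc32a1 was found in 13.9% and 14.7%. In the projection neuron clusters, which should lack it, thinned nuclei held it in 0% to 0.491%, and in Cluster 19 in 0.151%.

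The same comparison of thinned shares was made in Cluster 3, chosen after seeing the data. Dlx2 was found in 5.42%, 5.74%, 4.05%, 3.55% and 7.95% of the nuclei of saline embryos S1-1, S1-2, S2-1, S2-2 and S2-4, and in 7.29%, 7.82% and 9.30% as lowest, median and highest of the EtOH embryos. Only S2-4 of the saline embryos overlapped the EtOH group, and the difference was 2.76 percentage points (exact permutation p = 0.00866, two-sided). Gad2 was lower in EtOH, in 11.7% to 20.5% of nuclei in saline and 7.97% to 15.1% in EtOH embryos (exact permutation p = 0.0216), and Dlx1 was at 16.8% ± 3.73 and 14.1% ± 4.42 (exact permutation p = 0.301). Of the 6 members found in at least 1% of nuclei 2 had p under 0.05, where 12.7% of all such genes did, and 0 of 8 passed after adjustment. At 1000 UMIs the differences were 0.328 points for Dlx2 (exact permutation p = 0.595) and -1.10 for Gad2 (exact permutation p = 0.498). With all UMIs, where saline nuclei are deeper, Dlx2 was found in 14.9% and 15.1% (exact permutation p = 0.929). Gad2 was then found in 35.8% and 18.1% (exact permutation p = 0.00433).

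The effect of EtOH in the interneurons was set against that in Cluster 3 within each embryo. Gad2 had the lowest p, with -0.003 in interneurons and -0.341 in Cluster 3 on the log2(CPM + 1) scale, a difference of 0.338 (exact permutation p = 0.0216). It was the 1 member under 0.05, where 7.44% of the 11016 genes tested in both were (Dlx5, Dlx6 and Slc32a1 are not among these), and 0 of 8 passed after adjustment. For Gad1 the difference was 0.733 (exact permutation p = 0.0801) and for Dlx1 0.172 (exact permutation p = 0.558). With nuclei thinned to 2000 UMIs the difference for Gad2 was 0.405 (exact permutation p = 0.141) and no member was under 0.05, with Slc32a1 lowest (exact permutation p = 0.0844).

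Of the other genes of the pathway, few were called in the interneurons together, where 4.83% of all genes were. Among the upstream factors, Nkx2-1, the factor of the medial ganglionic eminence, was at 26.8 ± 9.22 CPM in saline and 14.4 ± 5.16 CPM in EtOH (log2 fold change -1.01 ± 0.27, edgeR adjusted p = 0.0485). None of the 17 interneuron factors, of the 7 genes tested among 8 of GABA transport and breakdown, and of the 7 genes of tangential migration was called by edgeR, nor was Dlx6os1. The median log2 fold changes of these 3 lists were -0.14, -0.06 and -0.16, against 0.01 over all genes tested. In Cluster 3, where 6 of the 8 upstream factors were tested and 1.85% of all genes were called, Nkx2-1 was lower (-1.38 ± 0.30, edgeR adjusted p = 0.0418) and Hes1, a Notch effector of radial glia, was higher (0.60 ± 0.15, adjusted p = 0.0456). In Cluster 5 Sp9 was lower (-0.40 ± 0.09, adjusted p = 0.0390), 1 of 16 interneuron factors tested there, where 2.01% of all genes were called. Each of these 4 calls was kept in 2 of the 11 fits that left out 1 embryo.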

How the data were processed

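Nuclei of E14 cortex were profiled by single-nucleus RNA-seq (10x Genomics 3' chemistry). The authors deposited UMI counts per gene and nucleus, made with Cell Ranger on mm10, after their own filters, together with a cluster annotation made on a Harmony-integrated embedding. Cell Ranger was run with its default parameters, under which reads are counted by strand. Its version is not given in the sources used here. No doublet caller was run on the deposited nuclei. Saline embryo S2-3 was not analysed here.

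Counts were summed per embryo and cluster, and pairs of embryo and cluster with fewer than 10 nuclei were left out. EtOH was compared with saline with edgeR 4.0.16 (TMM, quasi-likelihood F-test, filterByExpr, R 4.3.3), with Benjamini-Hochberg adjustment over all genes tested in a fit. DESeq2 1.42.0 and limma 3.58.1 (voom with dam as a random block) served as alternatives. Shares and differences of effects were compared with exact two-sided permutation tests over 462 splits of the embryos, for which the smallest p is 0.00216. Scripts were tested on simulated data. Littermates of 2 dams per group were taken as independent, so p-values measure the spread between embryos, not between dams. Nuclei were thinned to 2000 UMIs where shares were compared, and shallower nuclei were left out. Littermates differed by more than sampling noise and were counted separately.

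The 8 genes, the gene lists and the tests were chosen with earlier results of these data known. Named genes were the 8 members, the 3 genes most like each of them over the 25 clusters among genes of at least 10 CPM in a cluster, and listed genes called in Cluster 3, Cluster 5 or the interneurons together. Genes whose levels are given to describe a cluster were chosen after their values were seen. Results of some listed genes are not reported here.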

Additional observations from a re-analysis of the deposited data

Results flagged for a closer look

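In 2 of 50 groups of embryos tested, 1 embryo stood far from the others of its group, by Dixon's test at the 95% level, and chance alone flags about 1 group in 20. Both flags were Dlx6 in saline embryo S2-4. Its CPM in the 7 interneuron clusters together was 58.3, against 26.3 to 32.3 CPM in the other 4 saline embryos. The share of its interneuron nuclei with a Dlx6 UMI at 2000 UMIs per nucleus was 12.4%, against 5.73% to 7.61%.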

How the results depend on the processing

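Of 552 alternative values, 459 kept their direction and their side of the threshold. The number of member-cluster pairs called was 1, and was 3 with DESeq2, 9 with no filter on low counts, 3 with counts summed per dam, 2 with dam as a random block and 2 with nuclei thinned to 2000 UMIs. With 1 embryo left out it ranged from 0 to 10, the highest without S2-4, and 0 without any of E1-2, E2-2, E2-3, S1-1, S1-2 or S2-1. Calls over all genes also moved. In the interneurons together they were 701, and 1285 with DESeq2, 657 with no filter and 569 per dam. They were 1599 with dam as a block, 220 thinned, and 0 to 2478 with 1 embryo left out. The share of all gene-cluster pairs called is not given for each alternative, so these counts cannot be set against genes in general. The log2 fold change of Slc32a1 was 0.37 in the interneurons together and 0.50 in Cluster 5 with counts summed per dam, and 0.16 with the 7 clusters weighted equally, and was called in none of these. That of Gad2 in Cluster 3 was called with DESeq2 (-0.39), no filter (-0.44), counts per dam (-0.44) and dam as a block (-0.40), and that of Gad1 there with counts per dam (-0.89). That of Dlx2 in the interneurons was 0.51 with equal weights. With 1 embryo left out, interneuron values ranged from -0.47 to -0.28 for Dlx1, 0.11 to 0.43 for Dlx2, 0.08 to 0.37 for Dlx6, -0.08 to 0.06 for Dlx1as, -0.07 to 0.04 for Gad1 and 0.37 to 0.47 for Slc32a1. In Cluster 3 they were -0.97 to -0.64 for Gad1 (called without S2-2) and -0.46 to -0.32 for Gad2 (called without S2-4), and in Cluster 5 0.46 to 0.58 for Slc32a1.

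The direction turned for values near 0. In the interneurons Dlx5 was 0.13 and Gad2 0.03 with thinned nuclei, Dlx1as was -0.02 with no filter, -0.06 per dam and -0.04 with equal weights, and Gad1 was 0.01 with batch as a term, 0.03 thinned, 0.03 with equal weights and 0.07 without Cluster 7. Equal weights and leaving out Cluster 7 were chosen after seeing the data. With all UMIs, where saline nuclei are deeper, the difference in share was -0.290 points for Dlx2, -3.27 for Dlx5, -1.82 for Dlx6, -3.29 for Dlx1as, -2.97 for Gad1 and -1.19 for Gad2. For Dlx5 it was -0.460 at 1000 UMIs. Leaving out 1 embryo gave -1.18 to 1.41 for Dlx1as and -0.808 to 1.59 for Gad1. The difference of effects was -0.02 for Dlx2 at a pseudocount of 10 CPM and -0.09 thinned. With 1 embryo left out it was -0.05 to 0.11 for Dlx2, -0.58 to 0.07 for Dlx5 and -0.01 to 0.26 for Dlx1. The number of shares passing was 0, and 1 at 1000 UMIs and within batches, and 0 to 2 with 1 embryo left out (2 without S2-4). Thinned, the level in the cluster that led with all UMIs was 320.2 CPM for Dlx1 and 119.6 for Dlx6 (both Cluster 10) and 431 for Dlx1as (Cluster 5), where Cluster 10 then led at 471 CPM. Apart from the alternatives' own construction, the cause was not tested.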

Other observations

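Ratios between members in the same embryo were compared after their values were seen. They are given without a test, and how often such ratios separate the groups among genes in general was not computed. In the interneurons together, Slc32a1 was set against each of the other 7 members. Slc32a1 UMIs per Dlx1 UMI were 0.140 to 0.216 in saline and 0.243 to 0.312 in EtOH with all UMIs, and 0.0936 to 0.218 and 0.257 to 0.296 in thinned nuclei. Per Dlx1as UMI they were 0.0781 to 0.0893 and 0.0901 to 0.125, and thinned 0.0577 to 0.0844 and 0.0950 to 0.122. For these 2 genes the groups did not overlap on either scale. Per Dlx5 UMI the groups were apart with all UMIs (0.820 to 0.985 and 1.12 to 1.53) and overlapped when thinned (0.661 to 1.08 and 0.951 to 1.48). Per Gad2 UMI it was likewise, with 0.0149 to 0.0208 and 0.0209 to 0.0268 for all UMIs and 0.0134 to 0.0216 and 0.0196 to 0.0295 thinned. Against Dlx2, Dlx6 and Gad1 the groups overlapped on both scales.

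Dlx2 UMIs per Dlx1 UMI, a ratio of neighbours on chromosome 2, overlapped between the groups with all UMIs in the 4 sets of nuclei looked at. It was 0.139 to 0.244 in saline and 0.244 to 0.280 in EtOH in the interneurons together, 0.194 to 0.293 and 0.288 to 1.00 in Cluster 3, 0.133 to 0.284 and 0.231 to 0.306 in Cluster 5, and 0.136 to 0.221 and 0.159 to 0.294 in Cluster 10. In thinned nuclei the groups did not overlap in 3 of the 4, at 0.118 to 0.207 and 0.218 to 0.304 in the interneurons, 0.164 to 0.331 and 0.395 to 0.700 in Cluster 3, and 0.111 to 0.194 and 0.200 to 0.325 in Cluster 5. They overlapped in Cluster 10, at 0.121 to 0.269 and 0.176 to 0.318. Clusters 5 and 10 are part of the interneurons together, so the 4 sets are not separate. Of the 28 pairs of members in the interneurons together, 4 had groups that did not overlap with all UMIs and 3 when thinned. The 4 were Slc32a1 with Dlx1, Dlx5, Dlx1as and Gad2. The 3 were Slc32a1 with Dlx1, Slc32a1 with Dlx1as, and Dlx2 with Dlx1. Pairs that share a member are not separate results, and the share over pairs of genes in general was not computed.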
